A study of Capra hircus with 10 samples.

Results

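The enzymes described here are 10 antioxidant enzymes of the goat ovary, chosen by symbol from the protein-coding transcripts of the deposited table: the superoxide dismutases SOD1, SOD2 and SOD3, catalase (CAT), the glutathione peroxidases GPX3 and GPX4, the peroxiredoxins PRDX1, PRDX3 and PRDX6, and the thioredoxin reductase TXNRD1. All 10 symbols were found among 20587 mRNA gene symbols, and 10 of 10 passed the filter on low values in both phases. In the study, whole ovaries of Anhui white goats, collected at a slaughterhouse, were sorted into the luteal phase (5 ovaries) and the follicular phase (5 ovaries), with no treatment and no animal age in the labels. Total RNA of each ovary was sequenced as its own library after removal of ribosomal RNA. The aim of the study was to profile long noncoding RNAs and transcripts of uncertain coding potential in both phases of the estrous cycle. Expression was given as FPKM, in which fragments are divided by transcript length and by the mapped total of the library, and was summed over the transcripts of a gene, so levels can be compared between genes. The labels do not say that each ovary came from a different goat or how the phase was judged, so p-values measure the spread between these ovaries. The depth of each ovary's library is not given in the sources used here.

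Superoxide is formed when electrons leak from the respiratory chain or from steroid-making cytochrome P450 systems, and superoxide dismutases turn it into hydrogen peroxide. Hydrogen peroxide is then removed by catalase in peroxisomes, by glutathione peroxidases, which use glutathione, and by peroxiredoxins, of which PRDX1 and PRDX3 are recharged by thioredoxin and thioredoxin reductase and PRDX6 through glutathione. The corpus luteum, which fills the ovary with progesterone-making cells in the luteal phase, is rich in mitochondria and is known for its content of antioxidant enzymes, while growing follicles dominate the follicular phase.

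The luteal phase ovaries held more mRNA of 6 of the 10 enzymes, less of 2, and an undetermined difference for 2. GPX3, the glutathione peroxidase secreted into extracellular fluid, was 6.49-fold higher by the ratio of the phase means, GPX4, which reduces peroxidised membrane lipids, 2.98-fold, the mitochondrial peroxiredoxin PRDX3 2.30-fold, and the mitochondrial superoxide dismutase SOD2 2.14-fold. TXNRD1, the cytosolic thioredoxin reductase, was 1.66-fold and SOD1, the cytosolic copper and zinc superoxide dismutase, 1.53-fold higher. PRDX6 and PRDX1, peroxiredoxins found mainly in the cytosol, were 1.37-fold and 1.35-fold lower. CAT and the extracellular SOD3 did not pass the test. These 8 of 10 calls stand beside 43.7% of all 15359 genes tested at the same threshold, an adjusted p under 0.05 in limma with Benjamini-Hochberg adjustment over all tested genes. Calls higher in the luteal phase made up 6 of the 10 enzymes against 15.9% of all tested genes, and calls lower in the luteal phase 2 of 10 against 27.8%.

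**Figure D1:**
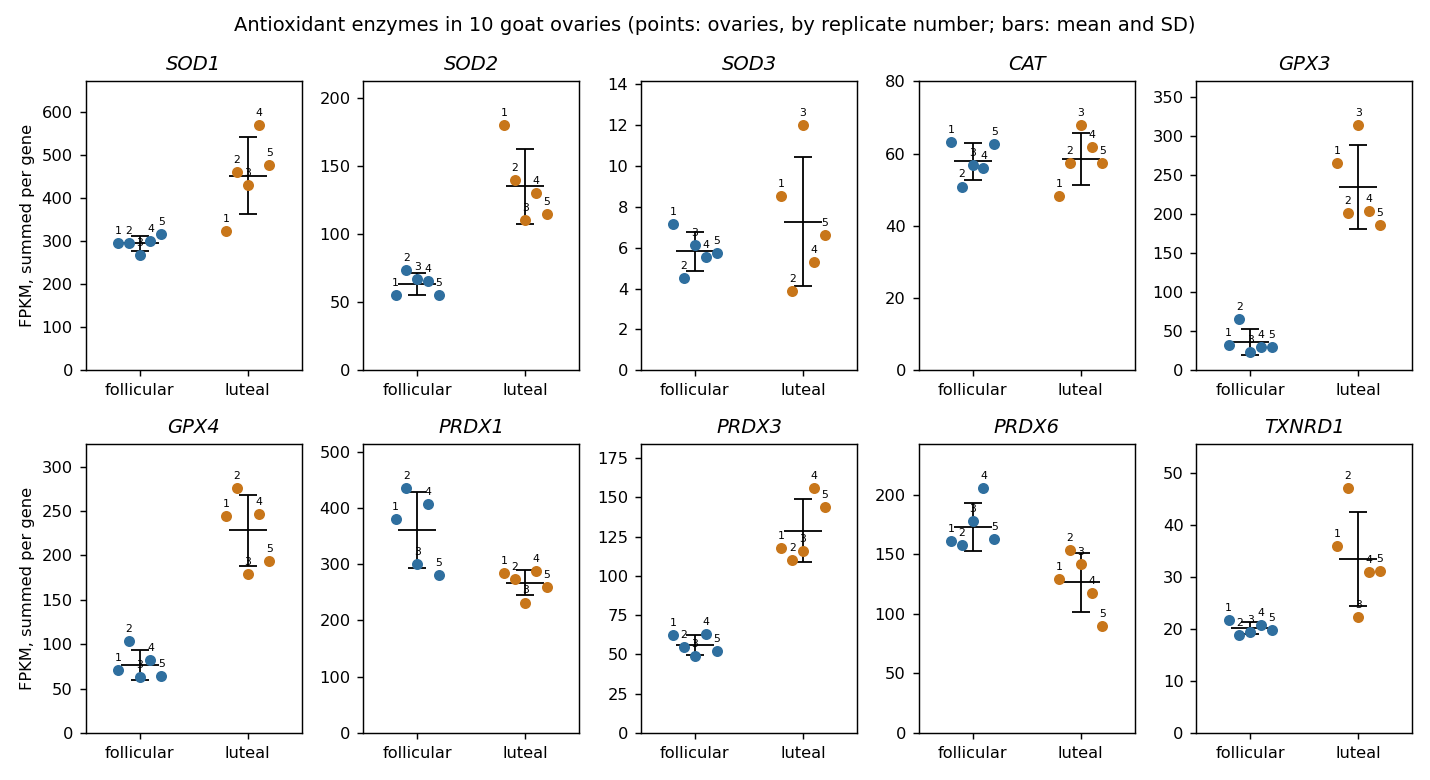
FPKM summed per gene (y axis, from 0, own scale in each panel) of the 10 enzymes in the 5 follicular and 5 luteal phase ovaries; points are ovaries with their replicate number, and bars give the mean and SD of a phase. Luteal ovaries lie above every follicular ovary for SOD1, SOD2, GPX3, GPX4, PRDX3 and TXNRD1 and below every follicular ovary for PRDX6, while the phases overlap for SOD3, CAT and PRDX1.

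Among the superoxide dismutases, SOD1 had an FPKM of 323, 461, 429, 569 and 477 in luteal phase replicates 1 to 5 and of 296, 296, 267, 299 and 316 in follicular phase replicates 1 to 5. The phases did not overlap, although luteal phase replicate 1, at 323, lay just above the highest follicular ovary, at 316. The luteal mean of 452 ± 88.9 stood against a follicular mean of 295 ± 17.5 (SD, n = 5 each), which is a change of 0.59 ± 0.13 on the log2 scale (SE, limma adjusted p = 0.00381). The luteal ovaries also differed more from each other, with a coefficient of variation of 19.7% against 5.93%. All fold changes are luteal minus follicular on log2(FPKM + 0.1). SOD2, which works in the mitochondrial matrix and uses manganese, was at 180, 140, 110, 130 and 115 in the luteal and at 55.3, 73.4, 66.8, 65.2 and 55.0 in the follicular phase. The lowest luteal ovary was therefore well above the highest follicular ovary. The means were 135 ± 27.8 and 63.1 ± 7.90, with a change of 1.08 ± 0.13 on the log2 scale (SE, adjusted p = 1.20e-04 in limma). The order of the luteal ovaries differed between these enzymes, and replicate 1 had the highest SOD2 and the lowest SOD1.

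SOD3, which is secreted and binds to the cell surface and matrix, was the least abundant of the 10 enzymes in both phases. It had an FPKM of 8.55, 3.88, 12.0, 5.28 and 6.62 in the luteal and of 7.16, 4.53, 6.12, 5.53 and 5.74 in the follicular phase. The phases overlapped, with luteal ovaries both above and below the whole follicular range. The log2 fold change was 0.23 with a 95% interval from -0.33 to 0.79 (limma adjusted p = 0.494), an interval that reaches from 0.793-fold to 1.73-fold. Without luteal phase replicate 3, at 12.0, the log2 fold change was 0.02.

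Catalase breaks down hydrogen peroxide without a reducing partner. CAT was at 48.3, 57.5, 67.9, 61.9 and 57.5 in the luteal and at 63.3, 50.9, 56.9, 56.0 and 62.6 in the follicular phase, so the phases covered nearly the same range. The means were 58.6 ± 7.17 and 58.0 ± 5.12 (SD, n = 5 each). The log2 fold change was 0.01 with a 95% interval from -0.20 to 0.22, that is between 0.873-fold and 1.16-fold (limma adjusted p = 0.929). The sign of this value was negative after quantile normalization and without luteal phase replicate 3, luteal phase replicate 4 or follicular phase replicate 2. Without any other single ovary it stayed positive.

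Both glutathione peroxidases of the list are selenoproteins, which carry selenocysteine in the active site. GPX3 reached 266, 202, 314, 204 and 186 in the luteal phase against 32.5, 66.2, 23.0, 29.7 and 29.4 in the follicular phase. The lowest luteal ovary, at 186, thus lay well above the highest follicular one, replicate 2 at 66.2. The means were 235 ± 54.1 and 36.1 ± 17.2 (SD, n = 5 each), with a change of 2.77 ± 0.25 on the log2 scale (SE, limma adjusted p = 1.28e-05). By its mean level GPX3 stood at the 88.3th percentile of all tested genes in the follicular phase and at the 98.5th in the luteal phase. Follicular phase replicate 2, the ovary with the most GPX3 of its phase, had a summed FPKM of 202 over 8 corpus luteum markers, inside the follicular range of 169 to 223. Of these 8 markers it had the highest follicular values of OXT (3.05), LHCGR (18.8 against 9.10 to 12.0) and FDX1 (51.2 against 37.7 to 49.0) and the lowest of PTGFR (13.8 against 28.6 to 44.7), and the part of luteal tissue in its GPX3 was not tested. Without this ovary the log2 fold change of GPX3 was 3.01.

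GPX4 was at 244, 276, 179, 247 and 194 in the luteal and at 70.8, 103, 63.1, 81.6 and 63.6 in the follicular phase. Luteal phase replicate 3, the lowest of its phase, was still above follicular phase replicate 2, the highest of the other. The means were 228 ± 40.0 and 76.5 ± 16.8 (SD, n = 5 each), with a change of 1.58 ± 0.16 on the log2 scale (SE, limma adjusted p = 2.38e-05). GPX1, the cytosolic glutathione peroxidase and a further selenoprotein, was named whatever its values and lay at 239 ± 24.0 and 174 ± 12.0, which is a change of 0.45 on the log2 scale (adjusted p = 0.00165). Its phases did not overlap either, at 203 to 268 against 157 to 188.

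The peroxiredoxins moved in different directions. PRDX3 had an FPKM of 118, 110, 116, 156 and 144 in the luteal and of 62.1, 54.6, 48.7, 63.0 and 52.1 in the follicular phase. The phases were separated by a wide gap. The means were 129 ± 19.8 and 56.1 ± 6.27 (SD, n = 5 each), with a change of 1.19 ± 0.11 on the log2 scale (SE, limma adjusted p = 1.69e-05).

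PRDX1 was at 285, 273, 232, 288 and 259 in the luteal and at 380, 436, 300, 408 and 281 in the follicular phase. Follicular phase replicate 5, at 281, lay below luteal phase replicates 1 and 4, so the phases overlapped. The log2 fold change was -0.41 ± 0.13 (SE, limma adjusted p = 0.0216), which is 0.28 below the median of all tested genes on this scale, -0.14. The call was lost when each ovary was shifted to a common median (-0.33, adjusted p = 0.0982) and also without follicular phase replicate 4 (-0.37, adjusted p = 0.0528). PRDX6, a peroxiredoxin that also has phospholipase activity, was at 129, 154, 142, 118 and 89.6 in the luteal and at 161, 158, 178, 206 and 163 in the follicular phase. The phases did not overlap, but the gap between 154 and 158 was small. The log2 fold change was -0.47 ± 0.14 (SE, adjusted p = 0.0159 in limma), and after the shift to a common median it was -0.39 with an adjusted p of 0.0599. After that shift 6 enzymes were therefore called higher and 0 lower, and both peroxiredoxins kept a negative value. PRDX2, another cytosolic peroxiredoxin that was named whatever its values, lay at 248 ± 32.4 and 229 ± 31.9 (0.12 on the log2 scale, adjusted p = 0.429).

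TXNRD1, a selenoprotein that keeps thioredoxin reduced with NADPH, was at 36.0, 47.2, 22.3, 30.9 and 31.1 in the luteal and at 21.8, 18.9, 19.4, 20.8 and 19.8 in the follicular phase. Luteal phase replicate 3, at 22.3, came close to the follicular range, and the other luteal ovaries lay clearly above it. The means were 33.5 ± 9.11 and 20.1 ± 1.15 (SD, n = 5 each), with a change of 0.69 ± 0.16 on the log2 scale (SE, limma adjusted p = 0.00481). The coefficient of variation was 27.2% in the luteal and 5.72% in the follicular phase. Counted over the list, 7 of the 10 enzymes had no overlap between the phases, against 28.4% of all tested genes, and 6 of the 10 had no overlap and were higher in the luteal phase, against 11.2% of all tested genes. A change of at least 1 on the log2 scale was seen for SOD2, GPX3, GPX4 and PRDX3, which is 4 of 10 against 10.3% of all tested genes.

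**Figure D2:**
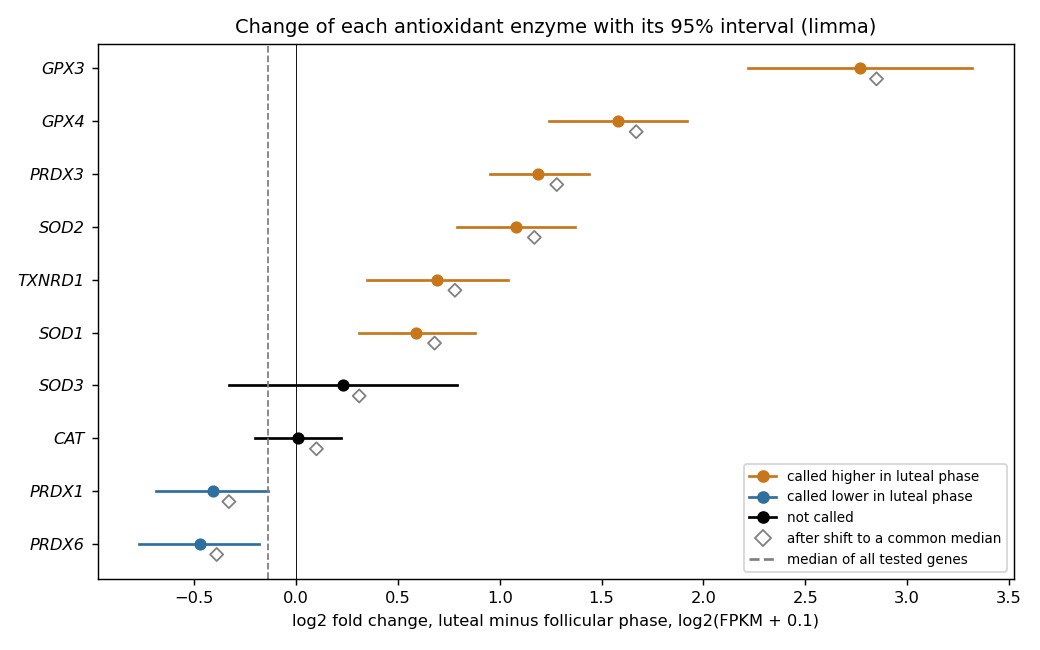
Log2 fold change, luteal minus follicular phase on log2(FPKM + 0.1) (x axis), of each enzyme with its 95% interval from limma; open diamonds give the value after each ovary was shifted to a common median, and the dashed line marks the median of all tested genes, -0.14. GPX3 lies farthest to the right at 2.77, the intervals of SOD3 and CAT include 0, and PRDX1 and PRDX6 lie below 0 at -0.41 and -0.47.

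The order of the levels differed between the phases. In the follicular phase PRDX1 (mean FPKM 361) and SOD1 (295) led, but their ranges overlapped and PRDX1 was the higher in 4 of 5 ovaries. PRDX6 followed at 173, below SOD1 in 5 of 5 ovaries and above GPX4 in 5 of 5. GPX4 (76.5), SOD2 (63.1), CAT (58.0), PRDX3 (56.1) and GPX3 (36.1) then formed a run in which each neighbour overlapped the next, and PRDX3 was above GPX3 in 4 of 5 ovaries. GPX3 was above TXNRD1 (20.1), and TXNRD1 above SOD3 (5.81), in 5 of 5 ovaries each.

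In the luteal phase SOD1 (mean FPKM 452) was above PRDX1 (267) in 5 of 5 ovaries with no overlap. PRDX1, GPX3 (235) and GPX4 (228) overlapped, and GPX3 was above GPX4 in 2 of 5 ovaries. GPX4 and SOD2 (135) overlapped as well, although GPX4 was the higher in 5 of 5. SOD2, PRDX3 (129) and PRDX6 (126) could not be told apart by their ranges, and CAT (58.6), TXNRD1 (33.5) and SOD3 (7.27) closed the order without overlap. By the means, GPX3 moved from rank 8 to rank 3 of the 10, and PRDX6 from rank 3 to rank 7.

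Summed over the 10 enzymes, FPKM was 1638, 1723, 1626, 1810 and 1560 in luteal phase replicates 1 to 5 and 1150, 1261, 1029, 1234 and 1048 in follicular phase replicates 1 to 5. The lowest luteal sum was above the highest follicular one. The members were chosen with earlier results known, so this sum is given without a test. PRDX1 held 31.3 ± 3.22% of the sum in the follicular phase and 16.0 ± 1.16% in luteal ovaries (SD, n = 5 each). PRDX6 went from 15.2 ± 1.95% to 7.55 ± 1.39%. GPX3 went the other way, from 3.10 ± 1.23% to 14.1 ± 3.55%, and GPX4 from 6.63 ± 0.903% to 13.6 ± 1.96%. The share of SOD1 overlapped between the phases, at 25.9 ± 2.59% and 27.0 ± 4.63%. Such shares sum to 100% in an ovary, so a larger share of one enzyme lowers those of the others.

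**Figure D3:**
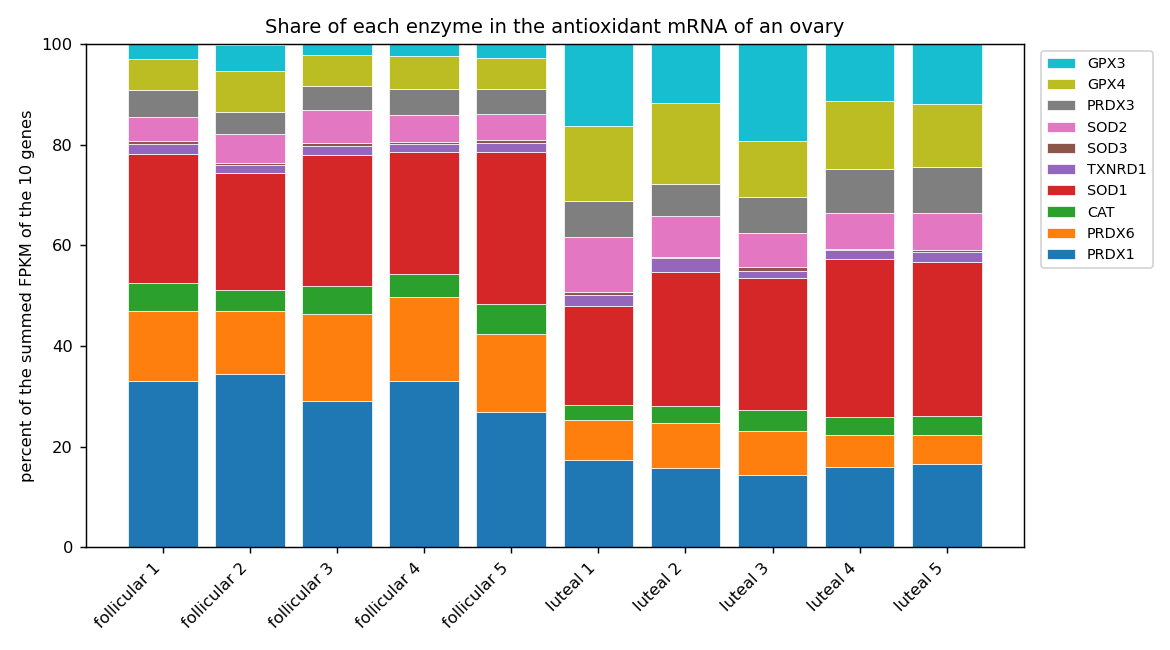
Share of each enzyme in the summed FPKM of the 10 enzymes (y axis, percent) in each of the 5 follicular and 5 luteal phase ovaries (x axis). PRDX1 and PRDX6, at the bottom of the bars, take up less of each luteal than of each follicular ovary, and GPX3 and GPX4, at the top, take up more.

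Ratios between enzymes within an ovary do not depend on a single scaling factor per library. The ratio of mitochondrial PRDX3 to cytosolic PRDX1 was 0.402 to 0.554 in luteal and 0.125 to 0.185 in follicular ovaries. These ranges were far apart. The corresponding ratio of mitochondrial SOD2 to cytosolic SOD1 was 0.228 to 0.557 and 0.174 to 0.250, so here the phases overlapped. Luteal phase replicate 1, at 0.557, was far above the other luteal ovaries, of which the next was at 0.305. The ratio of GPX4 to CAT was 2.64 to 5.05 in the luteal and 1.02 to 2.03 in the follicular phase. Between the secreted enzymes, the ratio of GPX3 to SOD3 was 26.2 to 52.1 against 3.76 to 14.6. These ratios were chosen after the values of the enzymes were seen and are given as descriptions without a test.

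**Figure D4:**
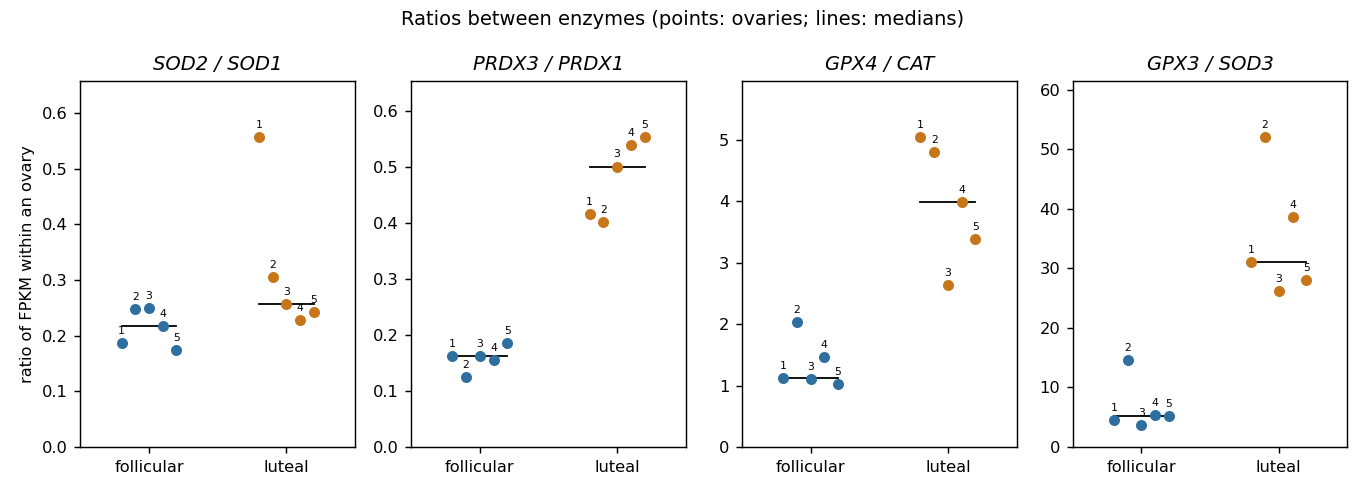
Ratio of FPKM within an ovary (y axis, from 0) for SOD2 to SOD1, PRDX3 to PRDX1, GPX4 to CAT and GPX3 to SOD3; points are ovaries with their replicate number, and lines are the medians of the phases. The phases are separate for the last 3 ratios and overlap for SOD2 to SOD1, where luteal phase replicate 1 stands apart at 0.557.

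Single ovaries did not stand at one end of their phase for all enzymes. Luteal phase replicate 3 had the lowest SOD2, GPX4, PRDX1 and TXNRD1 and the highest SOD3, CAT and GPX3 of the luteal ovaries. It also had the lowest summed FPKM of corpus luteum markers, 6365 against 8241 to 8537 in the other luteal ovaries, and the highest of stroma markers, 5743 against 3424 to 5250. Follicular phase replicate 2 had the highest SOD2, GPX3, GPX4 and PRDX1 and the lowest SOD3, CAT, PRDX6 and TXNRD1 of the follicular ovaries. Its summed FPKM of stroma markers was the lowest of all 10 ovaries, 2719. The part of these markers in the enzyme levels was not tested.

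Of the 10 enzymes, 8 have a single transcript in the table, so gene and transcript values are the same. TXNRD1 has 4 transcripts, of which XM_005680564.3 carried 99.9% of the summed FPKM, and none of the others exceeded 0.0429 in any ovary. SOD3 has 3 transcripts, and NM_001285675.1 carried 88.6% of its FPKM. Tested over 32842 transcripts of all classes, 12 of the 15 transcripts could be tested and 8 of these 12 were called, against 17.3% of all transcripts tested, one for each enzyme called at the level of genes. PRDX1 was at a limma adjusted p of 0.0497 there and PRDX6 at 0.0425. The count was 6 without the filter, at a common median, on the TPM scale and with eBayes without trend, 7 with either other pseudocount, and 6 to 7 without single ovaries. For SOD3 the log2 ratio of the main transcript to the others changed by 0.46 (standard error 0.37, limma adjusted p = 0.677 over all genes with several transcripts), where 0.619% of such genes were called.

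The thioredoxin and peroxiredoxin cycle has further parts, which were followed by role. TXN, the cytosolic thioredoxin that recharges PRDX1, was higher in the luteal phase, at 325 ± 46.4 against 197 ± 24.6 (SD, n = 5 each), a change of 0.72 ± 0.12 on the log2 scale (SE, limma adjusted p = 6.24e-04). TXN2, the mitochondrial thioredoxin that serves PRDX3, was at 28.1 ± 2.07 against 19.2 ± 0.872 (0.54 on the log2 scale, adjusted p = 1.26e-04). In both genes the phases did not overlap. TXNRD2, the mitochondrial reductase, was at 16.6 ± 3.39 and 14.2 ± 1.68, and its log2 fold change of 0.21 had a 95% interval from -0.09 to 0.52 (adjusted p = 0.234). SRXN1, which repairs over-oxidised peroxiredoxins, was 2.14-fold higher, at 19.8 to 26.5 against 8.11 to 14.2 (1.11 on the log2 scale, adjusted p = 9.36e-05). CCS, the copper chaperone of SOD1, was at 38.7 ± 4.52 and 41.5 ± 2.69 (-0.10 on the log2 scale, adjusted p = 0.341).

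In a list of 25 other peroxidases, thioredoxins, glutaredoxins and helpers, 22 were tested, with 7 called higher and 2 lower in luteal ovaries. Of all tested genes, 15.9% were called higher and 27.8% lower. The median log2 fold change was 0.09, against 0.64 for the 10 enzymes and -0.14 for all tested genes. The largest change belonged to GLRX2, a mitochondrial glutaredoxin, at 88.5 ± 19.3 and 31.1 ± 4.60 (1.49 on the log2 scale, limma adjusted p = 3.01e-05). GSR, the reductase that renews glutathione, was at 12.6 ± 1.43 and 14.7 ± 1.54, which is a change of -0.22 on the log2 scale (adjusted p = 0.0870). Without luteal phase replicate 2 its adjusted p was 0.0345, and without follicular phase replicate 5 it was 0.0398.

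Of 26 listed genes of glutathione synthesis and glutathione transfer, 17 were tested, with 2 higher and 6 lower in the luteal phase and a median log2 fold change of 0.12. The shares over all tested genes were 15.9% higher and 27.8% lower. The genes that were higher were MGST1 and HPGDS. MGST1, a microsomal glutathione transferase with peroxidase activity, was at 95.9 ± 20.1 against 14.3 ± 2.78 (SD, n = 5 each), a change of 2.73 ± 0.16 on the log2 scale (SE, limma adjusted p = 5.41e-07). HPGDS, a glutathione-dependent prostaglandin D synthase, was at 2.42 to 6.20 against 0.110 to 0.765 (3.06 on the log2 scale, adjusted p = 1.25e-04), and its change was 1.89 with a pseudocount of 1. SLC7A11, the cystine importer that feeds glutathione synthesis, was lower, at 5.88 ± 2.47 against 16.5 ± 4.70 (-1.55 on the log2 scale, adjusted p = 0.00211), and so was GGT7 of the gamma-glutamyltransferase family (-0.96 on the log2 scale, adjusted p = 0.00134).

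NRF2, encoded by NFE2L2, is the transcription factor that drives many antioxidant genes, and KEAP1 holds it back. NFE2L2 was at 50.0, 55.5, 59.2, 50.1 and 49.5 in the luteal and at 66.5, 51.7, 76.1, 70.7 and 76.7 in the follicular phase. Follicular phase replicate 2 lay inside the luteal range. The log2 fold change was -0.36 ± 0.11 (SE, limma adjusted p = 0.0191), and the call was lost at a common median (-0.27, adjusted p = 0.0544) and on the TPM scale (-0.26, adjusted p = 0.109). KEAP1 was at 14.5 ± 1.39 and 14.6 ± 1.32 (-0.01 on the log2 scale, adjusted p = 0.927), and its sign turned under other scalings. Of 18 listed regulators and targets, 5 were higher and 3 lower, with a median log2 fold change of 0.15. The share called in either direction was 43.7% of all tested genes, with 15.9% higher and 27.8% lower. Besides NFE2L2 the lower genes were SQSTM1, an autophagy receptor (-0.63 on the log2 scale, limma adjusted p = 0.0324), and HMOX1, the inducible heme oxygenase (-0.62, adjusted p = 0.0488), which fall outside the naming rule because their phases overlapped. The higher genes were HMOX2, BLVRA, NQO1, a quinone reductase (0.47, adjusted p = 0.00247), ABCC4, an export pump (0.46, adjusted p = 0.00150), and BACH1, a repressor of NRF2 targets (0.37, adjusted p = 0.0488), of which the last 3 also fall outside the rule. HMOX2, the constitutive heme oxygenase, was the most changed, at 34.0 ± 7.33 and 13.8 ± 1.59 (1.28 on the log2 scale, adjusted p = 3.92e-05). BLVRA, a biliverdin reductase, was at 22.0 ± 1.57 and 14.9 ± 1.98 (0.57 on the log2 scale, adjusted p = 9.67e-04).

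NADPH is the electron source of TXNRD1 and of glutathione renewal. Of the 14 genes of NADPH supply that were tested, 4 were higher and 2 lower in the luteal phase, with a median log2 fold change of 0.05. ME1, the cytosolic malic enzyme, was at 31.0 ± 2.76 and 16.8 ± 0.990 (SD, n = 5 each), or 0.88 on the log2 scale (limma adjusted p = 1.10e-05). IDH2, the mitochondrial NADP-dependent isocitrate dehydrogenase, was lower, at 15.3 ± 0.478 and 24.6 ± 3.45 (-0.67 on the log2 scale, adjusted p = 2.52e-04), as was MTHFD1 of folate metabolism (-0.33 on the log2 scale, adjusted p = 0.00626). Over all 8 related lists, 46 of 120 tested genes were called (38.3%), with 26 higher and 20 lower, which is close to the 43.7% of all tested genes. Over all tested genes the split was 2439 higher to 4272 lower. After the shift to a common median the lists had 29 higher to 9 lower and all genes 2910 to 3055, and on the TPM scale the lists had 30 to 9 and all genes 2884 to 2610. Without luteal phase replicate 4 the lists had 24 to 13 and all genes 2131 to 3357.

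**Figure D5:**
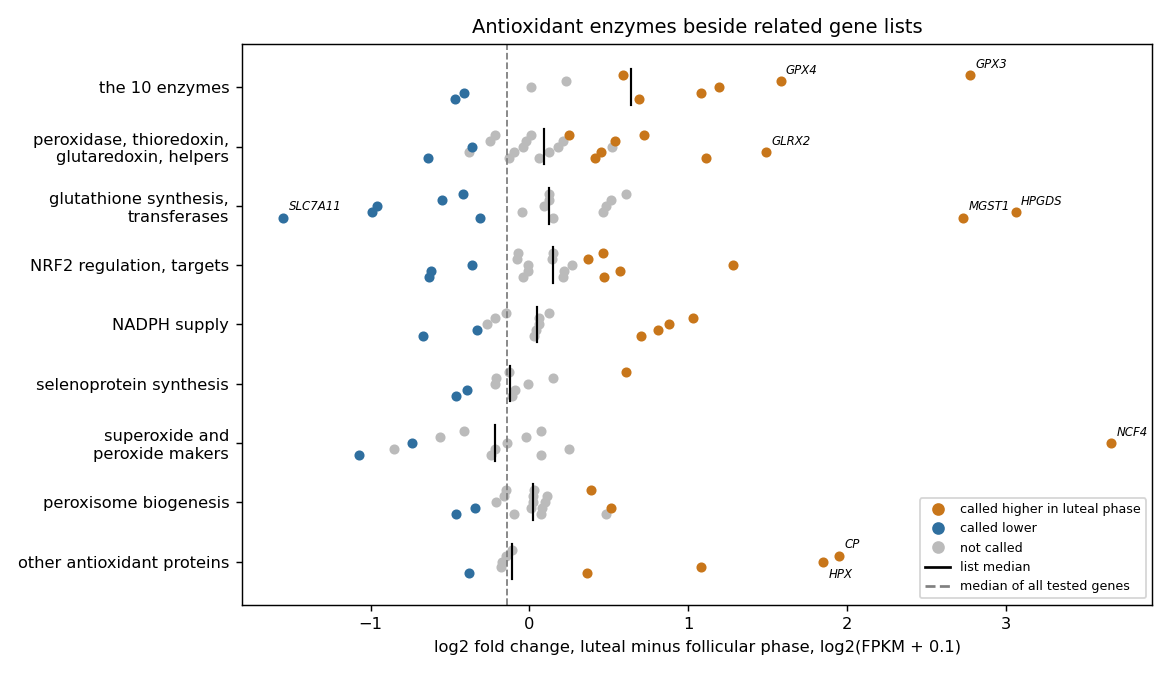
Log2 fold change, luteal minus follicular phase on log2(FPKM + 0.1) (x axis), of the tested genes of the 10 enzymes and of 8 related lists (rows); coloured points passed an adjusted p under 0.05 in limma, black lines are list medians and the dashed line is the median of all tested genes, -0.14. The 10 enzymes have the highest median, 0.64, and the other medians lie between -0.22 and 0.15.

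The labels of the phases were checked against marker genes of the cells an ovary can hold. All 8 corpus luteum markers in the table were higher in the luteal phase, with a summed FPKM of 6365 to 8537 against 169 to 223, and none was at 0 in any ovary. Endothelial markers were higher for 7 of 8 genes (sum 261 to 332 against 150 to 180) and macrophage markers for 5 of 8 (272 to 366 against 105 to 189). Granulosa cell markers were lower in the luteal phase for 4 of 8 genes (163 to 740 against 285 to 1256), the theca markers for 2 of 2 (17.1 to 69.2 against 139 to 202) and oocyte markers for 5 of 9 (8.76 to 20.5 against 16.7 to 47.5). NLRP5, among these 5 oocyte markers, passed the filter through the follicular ovaries (0.0168 to 0.235 luteal, 0.250 to 0.786 follicular). Its call is therefore no support for a difference. Stroma markers were mixed, with 3 of 8 higher and 2 lower (3424 to 5743 against 2719 to 3843). Of all tested genes, 15.9% were called higher and 27.8% lower in the luteal phase. Markers of several cell types thus differed between the phases, some higher and some lower, and their part in the enzyme values was not tested. In whole ovaries, fewer cells of a type and less RNA per cell cannot be told apart. Red blood cells hold much catalase and PRDX2, and 6 of their 12 listed markers were found in the table, with a sum of 0.856 to 1.76 in the luteal and 0.600 to 5.25 in the follicular phase. The highest of them was the hemoglobin gene HBBC, at up to 1.36 in the luteal and 4.86 in the follicular phase. FPKM over all transcripts summed to 452508 to 503276 per luteal and to 492324 to 540124 per follicular ovary.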

How the data were processed

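The authors depleted ribosomal RNA, sequenced strand-specific paired-end libraries, used HISAT2 for alignment and StringTie for assembly, and calculated FPKM per ovary with Cuffdiff; the deposited table has 1 FPKM column per ovary. The genome build is not given in the sources used here, so no coordinates are printed. From the transcript table (50146 rows), FPKM of mRNA transcripts were summed per symbol. The mRNA and annotated lncRNA tables repeat its values and were not used. Features reaching 0.1 FPKM in 5 or more of the 10 ovaries were tested as log2(FPKM + 0.1) in limma 3.58.1 (lmFit, eBayes with trend, R 4.3.3), two-sided, with Benjamini-Hochberg adjustment over all 15359 genes or 32842 transcripts, called at 0.05. Fold changes on this scale understate those of low genes. The script was tested on simulated data. Intervals are 95%. The depth of each library is not given in the sources used here, so precision is the spread between 5 ovaries.

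The enzymes and lists were chosen with earlier results of these data known. All 10 enzymes are named; of each related list, up to 2 called genes per direction with the largest change and no overlap between phases, plus NFE2L2, KEAP1, TXN, GSR, GPX1 and PRDX2; TXN2, TXNRD2, SRXN1 and CCS were added for their role. Some genes that the rule picked are not reported here. Through RefSeq synonyms (assembly ARS1.2), CYP11A1, CYP17A1 and GSTA3 were matched to LOC symbols. How reads were divided between near-identical gene copies is unknown. Alternatives were other pseudocounts, filters and scalings, eBayes without trend, a replicate block, the most abundant transcript and leaving out each ovary. Figures used Python 3.11.15 and matplotlib 3.10.9.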

Additional observations from a re-analysis of the deposited data

Results flagged for a closer look

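The 5 ovaries of a phase were screened for a highest or lowest ovary whose gap to its neighbour was a larger part of the whole range than Dixon's 95% critical value allows, which chance gives in about 1 in 20 groups. Of 74 groups of named genes, 4 were picked out in this way. Among the enzymes this was GPX3 in the follicular phase, where replicate 2 had an FPKM of 66.2 and the others 23.0 to 32.5. ME1 was lowest in luteal phase replicate 2, at 26.3 against 30.8 to 32.7. In luteal phase replicate 1, MTHFD1 was lowest at 22.8, against 25.7 to 26.4, and SEPHS1 at 11.4, against 12.3 to 12.5.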

How the results depend on the processing

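Of 200 values of the 10 enzymes under the alternatives, 193 kept direction and side of the threshold, 3 lost a call and 4 turned sign. The lost calls are those of PRDX1 and PRDX6 given with them. The sign turned for CAT, at -0.07 after quantile normalization and -0.04 to 0.08 without single ovaries (negative without luteal 3, luteal 4 or follicular 2). For 27 other named genes, 498 of 511 values kept both, and KEAP1 turned sign, to 0.07 at a common median, 0.03 with quantile normalization and 0.09 on the TPM scale, and ranged from -0.07 to 0.03 without single ovaries. DUOX2 lost its call after quantile normalization (adjusted p = 0.0501 in limma). Leaving out 1 ovary gave 7 to 8 called enzymes. The luteal share of all calls was 36.3%, against 48.8% after the shift and 52.5% on the TPM scale. The median log2 fold change of all genes was then -0.05.

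With a replicate block, 7020 genes were called against 6711, and 8 of 10 enzymes. The labels do not say whether equal numbers share an animal, day or batch. The correlations of deviations ran from 0.03 to 0.20, and for 2 of 5 numbers the best partner carried the same number. In both phases replicate 1 had the highest summed FPKM of granulosa cell markers (740 luteal, 1256 follicular). Replicate 3 had the lowest in both (163 and 285). A factor shared by equal numbers was not tested. HPX had a log2 fold change of 0.48 with a pseudocount of 1. With the block, 7 transcripts of the enzymes were called against 8. Depth, not known per library, limits the low genes most.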

Other observations

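Of 13 tested enzymes and subunits that make superoxide or hydrogen peroxide, 1 was higher and 2 were lower in the luteal phase. Over all tested genes 15.9% were higher and 27.8% lower. The median log2 fold change of the list was -0.22 against -0.14 for all genes. The gene that was higher is NCF4, a cytosolic subunit of the phagocyte NADPH oxidase, at an FPKM of 40.4, 40.7, 24.0, 28.9 and 22.9 in the luteal and of 2.06, 3.83, 1.78, 1.75 and 2.65 in the follicular phase. Its change of 3.66 ± 0.23 on the log2 scale (SE, limma adjusted p = 1.05e-06) was larger than that of any of the 10 antioxidant enzymes. Macrophage markers were higher for 5 of 8 genes, with sums of 272 to 366 against 105 to 189. AIF1, CD14 and CD68 were not called (log2 fold changes 0.43, 0.07 and -0.02, limma adjusted p = 0.0925, 0.694 and 0.962). The part of macrophages in the value of NCF4 was not tested. DUOX2, a dual oxidase, was lower, at 0.0818 to 0.212 against 0.233 to 0.874 (log2 fold change -1.07, adjusted p = 0.0127), and its change was -0.32 with a pseudocount of 1. Luteal phase replicates 1 and 3 lay under the filter of 0.1 (0.0818 and 0.0847), so this call rests on values near that filter.

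CAT resides in peroxisomes, and the 17 genes of peroxisome biogenesis and membrane had a median log2 fold change of 0.02, with 2 higher and 2 lower. Over all tested genes the shares were 15.9% higher and 27.8% lower. PEX3, which starts the membrane, was at 21.2 ± 2.07 and 14.9 ± 1.64 (SD, n = 5 each; log2 fold change 0.51, limma adjusted p = 0.00154). PEX11A, which acts in their division, changed by 0.39 (adjusted p = 0.0169). GPX3, GPX4 and TXNRD1 need selenocysteine, and of the 10 tested genes of selenoprotein synthesis and transport 1 was higher and 2 lower, with a median of -0.12. SEPHS1, of the selenophosphate synthetase family, had means of 12.2 ± 0.465 against 16.0 ± 0.998 (log2 fold change -0.39, adjusted p = 9.77e-04). SEPHS2 of the same family, which falls outside the naming rule, was not called (log2 fold change 0.15, limma adjusted p = 0.310). Besides GPX1, which was higher, 4 further selenoproteins were looked at after their values were seen and did not pass the test, with log2 fold changes of -0.02 for MSRB1, 0.21 for TXNRD2, -0.25 for TXNRD3 and -0.21 for the selenium carrier listed as SEPP1 (limma adjusted p = 0.805, 0.234, 0.149 and 0.297).

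Among 9 tested genes of other antioxidant proteins, 4 were higher and 1 lower, against 15.9% and 27.8% of all tested genes. Their median log2 fold change was -0.11. PARK7, a redox-sensitive chaperone, was at 127 ± 14.2 and 98.9 ± 8.88 (SD, n = 5 each; log2 fold change 0.36, limma adjusted p = 0.00887). HPX, which binds free heme, is 1 of the 4 and was at 0.125 to 0.902 against 0.0109 to 0.0891. It passed the filter through the luteal ovaries alone, so its call is no support for a difference.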
